A study of Mustela putorius furo with 2 samples.

Results

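SST-positive cells of the newborn ferret cortex are cells with 2 or more unique molecular identifiers (UMIs, each standing for 1 captured RNA molecule) of SST, the gene of the neuropeptide somatostatin. They were 199 of 14787 cells: 143 of 9782 in library A (1.46%, exact binomial 95% interval 1.23 to 1.72) and 56 of 5005 in library B (1.12%, 0.846 to 1.45). The members were chosen by their measured SST UMIs, so SST itself is a description and no result. Their median was 5 SST UMIs in library A and 3 in library B, and the highest counts were 167 and 126. Just inside the threshold stood 70 cells with 2 SST UMIs, and just outside it stood 853 cells with 1.

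All cells came from the dorsal cortex of wild-type (WT) ferret pups (Mustela putorius furo) at postnatal day 3, in 2 replicate samples of a single group. No treatment or altered allele is given in the labels. The labels do not say whether the replicates are separate animals or pools, nor which barcode suffix belongs to which replicate, so the libraries are called A and B. All p-values therefore measure only how differences between cell classes vary over 2 libraries, a spread that may be technical. The spread was estimated with information shared over genes, so a very small p-value does not rest on that gene's own variation alone.

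Library A held 41836475 UMIs and library B 18907140. SST-positive cells had a median of 3259 and 2781.5 UMIs in libraries A and B, against 3608 and 3072 in all other cells. The libraries share 21 barcode sequences, of which 0 belong to SST-positive cells. Scrublet called 0 doublets in either library, a sign that its automatic threshold did not work. By its score, 8 of 143 and 3 of 56 SST-positive cells lay above 0.2 in libraries A and B. Of the other cells it was 336 of 9639 and 141 of 4949, a smaller share in both libraries. The median score was 0.045 and 0.047 in SST-positive cells, against 0.037 and 0.038 in all other cells. Cells with 2 or more UMIs of CLDN5, a tight junction gene of endothelial cells, made up 1.43% of the other cells in library A and 8.93% in library B.

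In the mammalian forebrain, cortical interneurons that make somatostatin arise in the medial ganglionic eminence under NKX2-1 and LHX6 and migrate into the cortex. There they become GABA-releasing cells that mostly contact dendrites, among them Martinotti cells and a rare long-range projecting type marked by CHODL and NOS1. DLX1, DLX2, DLX5 and DLX6 encode transcription factors of ventral forebrain neurons, GAD1 and GAD2 the enzymes that make GABA, and NXPH1 a secreted ligand of neurexins found in interneurons. Caudal eminence interneurons are known for ADARB2, PROX1 and NR2F2, and lateral eminence or olfactory-type neurons for MEIS2 and SP8.

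Most SST-positive cells carried RNA of these interneuron genes. A UMI of at least 1 of the 6 DLX/GAD genes was found in 144 of 199 cells (110 in library A and 34 in library B). NXPH1 was found in 118, LHX6 in 69, and either of them in 125 (99 in library A and 26 in library B). Both kinds stood in 115 cells, 29 held DLX/GAD UMIs only, and 10 held NXPH1 or LHX6 UMIs only. The remaining 45 cells, 28 in library A and 17 in library B, held 0 UMIs of all 8 genes.

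The share with interneuron UMIs followed the number of SST UMIs. Among all SST-positive cells, 77.4% (70.9 to 83.0) held a UMI of the 8 genes, 80.4% in library A and 69.6% in library B. It was 52.9% (40.6 to 64.9) of the 70 cells with 2 SST UMIs, 69.4% (51.9 to 83.7) of the 36 with 3 to 4, and 95.7% (78.1 to 99.9) of the 23 with 5 to 9. All 41 cells with 10 to 29 SST UMIs and all 29 with 30 or more held one. Among cells outside the class it was 31.3% (28.2 to 34.5) with 1 SST UMI and 26.4% (25.7 to 27.2) with 0.

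Droplets also catch free RNA, so the shares are set beside those of CLDN5 cells, which as endothelial cells should lack these genes. Of the 580 CLDN5 cells outside the class, with a median of 2166 UMIs against 3152 in SST-positive cells, 36.0% (32.1 to 40.1) held a UMI of the 8 genes. With every cell thinned to 1500 UMIs, the shares were 70.9% in SST-positive cells, 27.6% in CLDN5 cells, 20.6% with 1 SST UMI and 18.8% with 0. At both depths the share in CLDN5 cells lay above that of cells with 1 or 0 SST UMIs. Whether it measures free RNA alone was not tested. Of all 592 CLDN5 cells 12 (2.03%, 1.05 to 3.51) passed the SST rule, 5 in library A and 7 in library B. Free RNA and doublets cannot be told apart in these cells. The intervals cover counting error only.

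**Figure D1:**
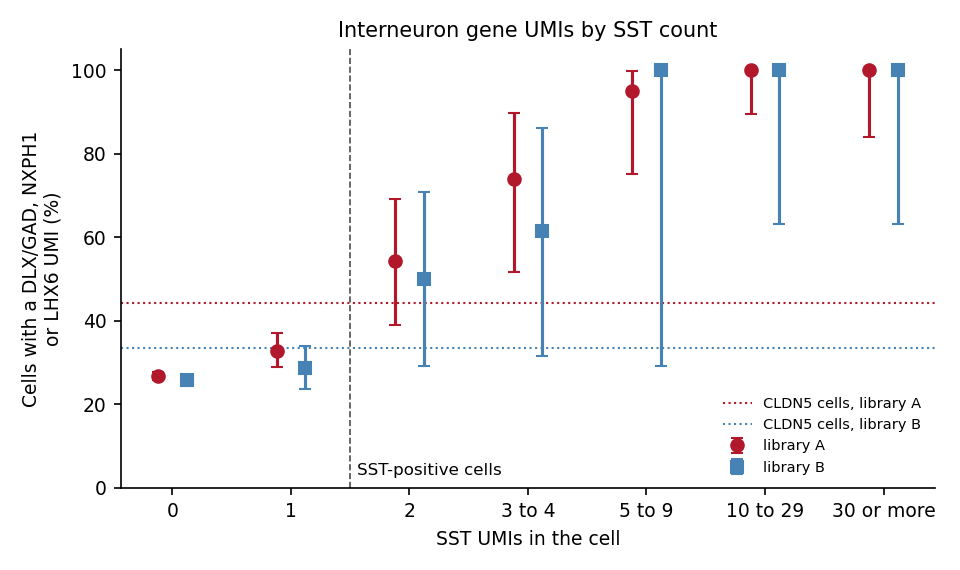
Share of cells (%) with a UMI of a DLX/GAD gene, NXPH1 or LHX6, by the number of SST UMIs in the cell, in library A (circles) and library B (squares), with exact binomial 95% intervals. Dotted lines give the CLDN5 cells of each library (44.2% and 33.5%), and the dashed line marks the SST threshold. Cells with 2 SST UMIs stood at 54.3% and 50%, and all cells with 10 or more stood at 100%.

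Against all other cells, SST-positive cells held far more RNA of interneuron genes and of a second neuropeptide, NPY. To test this, UMIs were summed per class and library, and edgeR's quasi-likelihood test was fitted over 14905 genes with the library as a block. Levels are given as UMIs scaled to 1000000 UMIs of the summed cells without SST (CPM), which do not tell fewer cells with a gene from less RNA per cell, and differences as log2 fold changes of SST-positive over other cells. At an adjusted p under 0.05, 436 genes (2.93%) were higher and 500 (3.35%) lower, 6.28% in either direction. DESeq2's Wald test called 227 and 84.

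The 8 interneuron genes were not used by the rule and were each higher in SST-positive cells. NXPH1 stood at 1303 and 826 CPM in SST-positive cells of libraries A and B, against 96.5 and 65.7 CPM in all other cells (log2 3.65, SE 0.15, edgeR adjusted p = 1.51e-132). LHX6 stood at 208 and 56.3 CPM, against 12.1 and 7.28 CPM (3.78, SE 0.25). The other 6 lay between 1.74 (DLX1, SE 0.16) and 2.85 (GAD1, SE 0.22). Among the 8, only the DLX6 call was lost in an alternative, in 1 of 11. Of 6 tested genes of GABA synthesis and transport, 5 rose, among them SLC32A1, the vesicular GABA transporter gene, with 30.5 and 32.9 CPM against 3.56 and 1.87 CPM.

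NPY, whose peptide is made by several kinds of interneuron, had the largest rise among called genes with at least 20 CPM: 4714 and 5519 CPM in SST-positive cells, against 14.9 and 15.6 CPM in all other cells (log2 8.32, SE 0.15). SST-positive cells held 80.1% of all NPY UMIs in each library, 2474 of 3090 in library A and 1176 of 1468 in library B. RELN, the gene of the secreted migration signal reelin, stood at 404 and 253 CPM against 12.2 and 8.61 CPM (4.93, SE 0.20, edgeR adjusted p = 6.41e-126). PDE1A, a cyclic nucleotide phosphodiesterase gene, followed with 4.83 (SE 0.24). OLFM3, an olfactomedin gene, reached 4.50 (SE 0.17), KCNC2, a Kv3 potassium channel gene of fast-firing interneurons, 4.37 (SE 0.36), CHRM2, a muscarinic receptor gene, 4.26 (SE 0.56), and NELL1, a secreted glycoprotein gene, 4.2 (SE 0.19). Also among the 10 largest was TMEM132D (4.32, SE 0.73), with 28 UMIs in 16 cells and no call after thinning (edgeR adjusted p = 0.073).

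Regulators of medial eminence interneurons were higher in 10 of 14 tested cases and lower in 1, with a median log2 of 1.59 beside -0.09 over all genes tested. MAF, a transcription factor gene of these interneurons, rose (3.06, SE 0.15), as did BCL11B (2.43, SE 0.24), SATB1 (2.11, SE 0.20) and SOX6 (1.45, SE 0.13). ETV1 fell (-1.18, SE 0.28), a call that DESeq2 did not make (adjusted p = 0.255). Of 24 tested genes known from SST subtypes, 12 rose and 0 fell (median 1.20). The 12 include CHODL, TACR1 and NOS1, each with UMIs in 3 SST-positive cells. Of 20 migration genes 4 rose and 6 fell, with ERBB4, the neuregulin receptor gene of migrating interneurons, at 2.46 (SE 0.11) and the chemokine receptor genes CXCR4 at 1.84 (SE 0.19) and ACKR3 at 2.92 (SE 0.57), of which the ACKR3 call was lost after thinning (edgeR adjusted p = 0.0853).

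Markers of excitatory neurons, radial glia and astrocytes were lower in part, and those of several other cell types were not called. Of 10 excitatory neuron markers 5 fell and 1 rose, with NEUROD6 at -1.10 (SE 0.17) and NEUROD2 at -0.95 (SE 0.18). Of 10 radial glia markers 7 fell and 0 rose, with HOPX at -1.39 (SE 0.20) and FABP7, a fatty acid binding protein gene of radial glia, at -1.15 (SE 0.09). EOMES, the intermediate progenitor gene, fell by 1.68 (SE 0.26), a call lost after thinning (-0.98, edgeR adjusted p = 0.147), and 6 of 7 astrocyte markers fell. Of 5 oligodendrocyte precursor markers (median 0.22), 7 mural and fibroblast markers (median 0.07) and 6 endothelial markers (median 0.34) 0 were called, with CLDN5 itself at 55.3 and 239 CPM in SST-positive cells, against 33.1 and 187 CPM in all other cells. Of 4 tested markers of Cajal-Retzius cells, early reelin-secreting neurons, 2 rose, RELN and CACNA2D2 (3.59, SE 0.61), and 0 fell. Of 11 tested genes of caudal eminence and other interneurons 1 rose (NPAS3) and 1 fell (PAX6, also listed as a radial glia marker). ADARB2 was at 0.13 (SE 0.18, edgeR adjusted p = 0.843) and turned to -0.69 when cells were thinned.

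Most of the largest falls by fold belonged to sparse genes. SPP1, the osteopontin gene, had 0 UMIs in SST-positive cells, where 3 UMIs would be 5.72 and 14.1 CPM, against 73.2 and 216 CPM in all other cells. H1-1, GINS2, KCNJ15, NCAPG2, LYN, H1-5 and APOC1 had 1 to 9 UMIs each in SST-positive cells. DESeq2 called H1-5 alone among these 8 genes (-2.64, SE 0.38 in edgeR), and its edgeR call was lost after thinning (-1.65, adjusted p = 0.135).

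A closer comparison sets SST-positive cells against other interneuron-lineage cells. Of the members, 122 held 2 or more DLX/GAD UMIs (99 in library A and 23 in library B). They were compared with the 1326 and 539 other cells at the same DLX/GAD level, here called other DLX/GAD cells. Median depth was 3451 and 3151 UMIs in the SST-positive DLX/GAD cells and 3101 and 2842 in the others. Of 10644 genes, 175 (1.64%) were higher and 141 (1.32%) lower, 2.97% in either direction, and DESeq2 called 48 and 22. This test, the preceding and the following one share SST-positive cells and are not independent.

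NPY again led, with 4831 and 7667 CPM in SST-positive DLX/GAD cells of libraries A and B, against 30.3 and 32.6 CPM in other DLX/GAD cells (log2 7.52, SE 0.20, edgeR adjusted p = 1.99e-12). Each library alone gave 7.31 and 7.87. The sum of library B rests on few cells: the highest held 378, 190 and 139 NPY UMIs, and 12 of 23 held 0. The cell with 378 is 1 of the CHODL cells described below. An NPY UMI was present in 52.5% and 47.8% of SST-positive DLX/GAD cells, against 6.86% and 6.12% of other DLX/GAD cells and 5.80% and 6.11% of CLDN5 cells. After thinning to 1500 UMIs the shares were 45.5% and 47.8%, against 4.37% and 3.15%, and 3.62% and 4.52% in CLDN5 cells. The share in other DLX/GAD cells was thus close to that in CLDN5 cells, whose median depth was 2598.5 and 2051 UMIs.

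PDE1A stood at 245 and 185 CPM in SST-positive DLX/GAD cells, against 1.96 and 2.33 CPM in the others (6.70, SE 0.38). Its 107 UMIs came from 19 of the 122 cells, 12 of them from the CHODL cell of library B. RELN was more widespread, with 252 UMIs in 68 cells: 562 and 487 CPM, against 44.6 and 25.6 CPM (3.83, SE 0.21, edgeR adjusted p = 3.39e-08). PTPRM, a receptor phosphatase gene, stood at 403 and 263 CPM, against 25.6 and 33.1 CPM (3.59, SE 0.26). CHRM2 rose by 3.72 (SE 0.45), with 108 and 29.2 CPM against 6.46 and 5.59 CPM. DESeq2 called these 5 genes too.

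Several other large rises rested on few UMIs. GRIN3A, an NMDA receptor subunit gene of SST interneurons, had 18 UMIs in 9 cells (4.22, SE 0.64). PCSK6, a proprotein convertase gene, had 13 UMIs in 11 cells (3.30, SE 0.52). PKIB, a protein kinase A inhibitor gene, had 19 UMIs in 6 cells (4.01, SE 0.48). KLF5, a transcription factor gene, had 18 UMIs in 5 cells (4.36, SE 0.51), 10 of them in 1 cell. DESeq2 gave no adjusted p for these 4.

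Among DLX/GAD cells, genes of medial and caudal eminence interneurons moved in opposite directions. Of 13 tested medial eminence regulators 7 rose and 1 fell, with a median of 0.83 beside -0.05 over all genes tested. SATB1, a chromatin organiser gene needed by SST interneurons in mice, rose by 1.80 (SE 0.21), LHX6 by 1.72 (SE 0.24), MAF by 1.37 (SE 0.16) and SOX6 by 1.27 (SE 0.17). CUX2 and MEF2C rose by 1.08 (SE 0.20) and 0.83 (SE 0.19), calls that DESeq2 did not make. ETV1 fell by 1.86 (SE 0.38), also without a call by DESeq2. NKX2-1, which is known to be switched off in cortical interneurons once they leave the eminence, had 0 UMIs in the 122 cells.

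Of 10 tested genes of caudal eminence and other interneurons 0 rose and 6 fell, with a median of -1.70. This list also holds PAX6, a radial glia marker, and SP8. ADARB2 stood at 156 and 351 CPM in SST-positive DLX/GAD cells, against 1201 and 749 CPM in other DLX/GAD cells (-2.22, SE 0.28, edgeR adjusted p = 0.000314). Library A alone gave -2.94 and library B alone -1.08. NR2F2 (-2.21, SE 0.40), PROX1 (-1.59, SE 0.37), PAX6 (-1.81, SE 0.35) and SP8 (-2.68, SE 0.52) also fell, as did CCK (-2.14, SE 0.53). The CCK call was lost in 4 of 9 alternatives and that of PAX6 in 3 of 10, thinning among them for both. Of these 6, DESeq2 called ADARB2 alone. Of 10 lateral eminence and olfactory-type genes 3 fell and 0 rose: ETV1, SP8 and MEIS2 (-0.78, SE 0.16), of which the first 2 are also counted above and the MEIS2 call was lost after thinning (edgeR adjusted p = 0.0862).

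Shares of cells ordered the classes as the sums did. With all cells thinned to 1500 UMIs, NXPH1 was found in 81.8% and 65.2% of SST-positive DLX/GAD cells, against 27.2% and 21.1% of other DLX/GAD cells and 14.5% and 7.01% of CLDN5 cells. MAF was found in 69.7% and 60.9%, against 29.4% and 22.4%, and 7.97% and 6.79% in CLDN5 cells. ADARB2 was found in 6.06% and 21.7% of SST-positive DLX/GAD cells, against 47.4% and 39.1% of the others and 7.97% and 8.14% of CLDN5 cells. In library A the ADARB2 share of SST-positive cells was therefore no higher than that of CLDN5 cells, and in library B it rests on 5 of 23 cells.

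**Figure D2:**
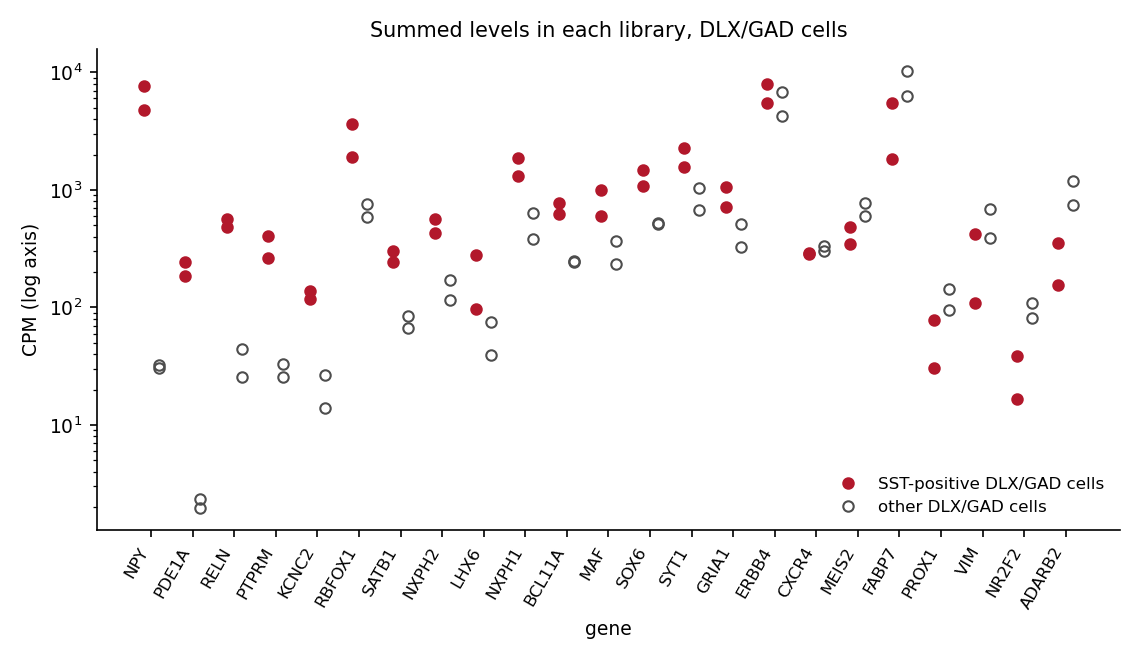
Summed levels (CPM, log axis) of 23 genes in SST-positive DLX/GAD cells (filled, left) and other DLX/GAD cells (open, right), 1 point per library. NPY stood at 4831 and 7667 in SST-positive cells, against 30.3 and 32.6 in the others, while ERBB4 and CXCR4 lay close together and ADARB2 was lower in SST-positive cells.

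**Figure D3:**
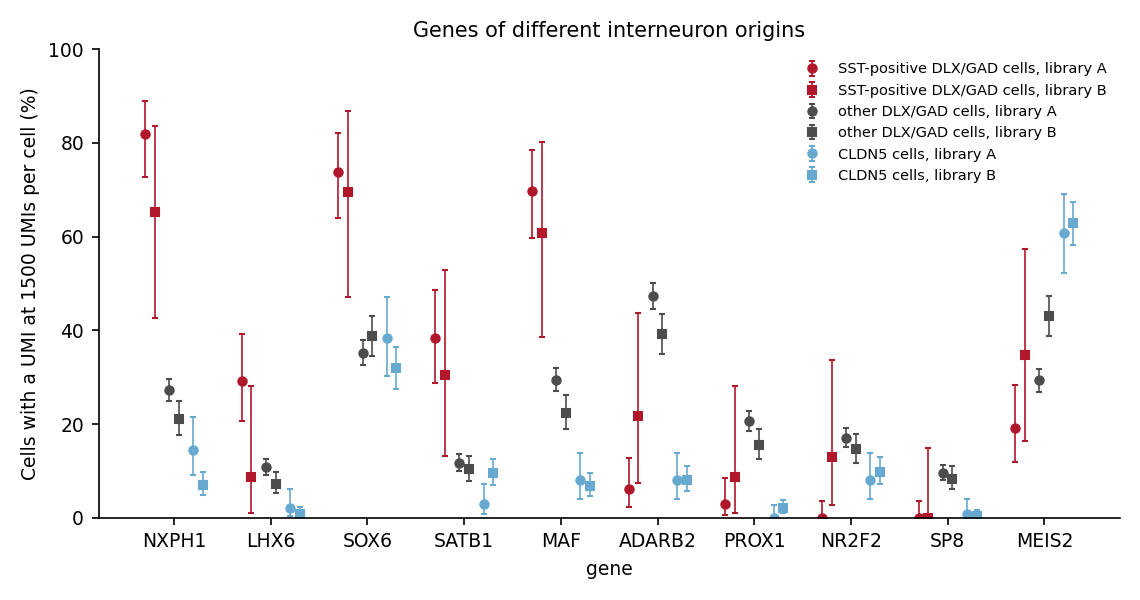
Share of cells (%) with a UMI after thinning to 1500 UMIs per cell, for medial eminence genes (NXPH1 to MAF), caudal eminence genes (ADARB2 to NR2F2) and SP8 and MEIS2. SST-positive DLX/GAD cells are red, other DLX/GAD cells grey and CLDN5 cells blue, with library A as circles, library B as squares and exact binomial 95% intervals. NXPH1 reached 81.8% and 65.2% in SST-positive DLX/GAD cells, against 27.2% and 21.1% in other DLX/GAD cells.

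Genes of excitability and synapses were in part higher. Of 14 ion channel genes 6 rose and 1 fell (median 0.81). KCNC2 stood at 139 and 117 CPM in SST-positive DLX/GAD cells, against 26.6 and 14.0 CPM in the others (2.54, SE 0.32), a call lost after thinning (1.61, edgeR adjusted p = 0.0715). The large-conductance potassium channel gene KCNMA1 rose by 1.95 (SE 0.37), while CACNA2D1 fell by 1.33 (SE 0.27). DESeq2 called KCNC2 alone among these 3 genes. The CACNA2D1 call was lost in 3 of 10 alternatives and that of KCNMA1 in 1. Of 15 ionotropic glutamate receptor genes 2 rose, GRIA1 (1.05, SE 0.16) and GRIN3A, and 0 fell. Of 15 maturation genes 3 rose and 0 fell: RBFOX1, a splicing regulator gene (1.97, SE 0.17), SYT1, a synaptic vesicle calcium sensor gene (1.12, SE 0.15), and GAP43, a growth cone gene (0.92, SE 0.22). The GAP43 call was lost in 3 of 10 alternatives and that of SYT1 in 1.

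Of 19 synapse organiser genes 3 rose and 0 fell, NXPH1 (1.62, SE 0.15), SYT1 and CNTNAP2. NXPH2, a paralogue of NXPH1, rose by 1.77 (SE 0.18). Of 13 tested genes known from SST subtypes 5 rose, NPY, RELN, GRIN3A, NXPH1 and NXPH2, and 1 fell. The gene that fell was SYNPR, a call lost in 2 of 9 alternatives. BCL11A, a transcription factor gene listed with the excitatory neuron markers and known also from interneurons, rose by 1.49 (SE 0.17), and the other 7 tested markers of that list were not called. The summed level of the list was 1012 and 809 CPM in SST-positive DLX/GAD cells, against 439 and 549.9 CPM in the others, and BCL11A alone made up 778 and 623 CPM of it in SST-positive cells.

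Genes of peptide processing and of GABA synthesis showed no call at this depth, and those of migration 2. Of 10 tested genes of peptide processing and dense-core vesicles 0 were called, with SCG3 at 0.42 (SE 0.23, edgeR adjusted p = 0.478) and CPE, the carboxypeptidase that trims peptide hormones, at -0.54 (SE 0.19, edgeR adjusted p = 0.182). Of 4 further genes of GABA synthesis and transport 0 were called, with SLC32A1 at 1.07 (SE 0.47, edgeR adjusted p = 0.347). Among 18 migration genes, PROKR2, a prokineticin receptor gene, rose (2.10, SE 0.35) and ROBO1, an axon guidance receptor gene, fell (-0.79, SE 0.19), both not called by DESeq2. ERBB4 stood at 8036 and 5524 CPM in SST-positive DLX/GAD cells, against 6806 and 4296 CPM in the others (0.25, SE 0.15, edgeR adjusted p = 0.518). CXCR4 stood at 292 and 283 CPM, against 330.2 and 305 CPM (-0.19, SE 0.18, edgeR adjusted p = 0.754). TAC3, a neurokinin gene, stood at 38.9 and 48.7 CPM, against 43.8 and 40.5 CPM. CALB1, the calbindin gene known from Martinotti cells, had 1 UMI in the 122 cells.

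Of 10 radial glia markers 6 fell and 0 rose, whereas 0 of 2 tested intermediate progenitor markers and 1 of 8 mitosis genes were called. FABP7 stood at 1846 and 5543 CPM in SST-positive DLX/GAD cells, against 6268 and 10260.0 CPM in the others (-1.38, SE 0.18). VIM fell by 1.34 (SE 0.22) and HOPX by 2.57 (SE 0.39), a call lost after thinning (-1.46, edgeR adjusted p = 0.411). The mitosis gene that fell was MKI67 (-1.79, SE 0.45, edgeR adjusted p = 0.0444), a call lost in 7 of 10 alternatives, DESeq2 among them, with an adjusted p of up to 0.639. The summed mitosis level was 131 and 1598 CPM in SST-positive DLX/GAD cells, against 1146.5 and 1197 CPM in the others, lower in library A and higher in library B. In library B, 153 of its 164 mitosis UMIs stood in 2 of 23 cells, whereas the 99 cells of library A held 47. Oligodendrocyte precursor markers likewise came from few cells, 40 of 49 UMIs from 1 cell in library B.

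The largest falls by fold again had few UMIs. SPP1 and NCAPG2 had 0 UMIs in SST-positive DLX/GAD cells, where 3 UMIs would be 8.34 and 29.2 CPM. SPP1 stood at 23.3 and 284 CPM in other DLX/GAD cells and NCAPG2 at 31.5 and 29.8 CPM. SOX21 and GSX2, transcription factor genes of progenitors, ECT2, a gene of cell division, and H1-1 and IQGAP2 had 1 UMI each. DESeq2 called none of these 7: it gave SPP1 an adjusted p of 0.999 and the other 6 no adjusted p.

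SST-positive cells were also set against interneurons that held NXPH1 or LHX6. At 2 DLX/GAD UMIs library B held 18 such SST-positive cells, under the minimum of 20 per sum, so 1 DLX/GAD UMI was required instead. It compared 94 and 21 SST-positive cells with 513 and 226 other NXPH1/LHX6 interneurons. Of 8461 genes, 52 (0.615%) were higher and 53 (0.626%) lower, 1.24% in either direction, and DESeq2 called 13 and 8.

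NPY stood at 4522 and 9281 CPM in SST-positive NXPH1/LHX6 interneurons, against 57.3 and 48.3 CPM in the others (6.83, SE 0.24, edgeR adjusted p = 1.33e-08). PDE1A rose by 6.82 (SE 0.39), with 252 and 218 CPM against 2.45 and 1.05 CPM. In library B the same CHODL cell is part of both sums, with 378 NPY and 12 PDE1A UMIs. RELN stood at 609 and 578 CPM, against 98.9 and 47.2 CPM (2.94, SE 0.22, edgeR adjusted p = 2.02e-05). LRFN5, a synaptic adhesion gene (3.13, SE 0.33), and PTPRT, a receptor phosphatase gene (2.69, SE 0.20), rose as well, and DESeq2 called these 5 too. KLF5, PKIB and CHRM2 were also among the 10 largest rises, with 18 to 43 UMIs each and no adjusted p in DESeq2. Of 11 tested genes known from SST subtypes 2 rose, NPY and RELN, and 0 fell.

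The classes of this comparison were themselves drawn by NXPH1 or LHX6. Of 12 tested medial eminence regulators 3 rose and 0 fell, among them SATB1 (1.37, SE 0.20) and SOX6 (1.02, SE 0.14). Of these 2 genes, DESeq2 called SOX6 alone. MAF was at 0.55 (SE 0.15, edgeR adjusted p = 0.13). The SOX6 call was lost (0.81, edgeR adjusted p = 0.0615) without 1 cell of library B, described below, that held 37 of the 613 SOX6 UMIs of these SST-positive cells. Of 9 genes of caudal eminence and other interneurons 0 were called. ADARB2 stood at 166 and 87.2 CPM in SST-positive cells, against 201 and 126 CPM in the others (-0.33, SE 0.22, edgeR adjusted p = 0.684). Of 8 lateral eminence and olfactory-type genes MEIS2 fell (-0.93, SE 0.16), a call lost after thinning (-0.86, edgeR adjusted p = 0.0713).

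RBFOX1 (1.55, SE 0.15), SYT1 (0.71, SE 0.13), KCNC2 (1.65, SE 0.28), the calcium channel subunit gene CACNA2D3 (1.18, SE 0.18), NRXN3, a neurexin gene (0.84, SE 0.14), CNTNAP2 (1.69, SE 0.30) and BCL11A (1.04, SE 0.15) were higher here too. Of these 7, DESeq2 called RBFOX1 alone. The KCNC2 call was lost after thinning (0.55, edgeR adjusted p = 0.857), as were those of CNTNAP2 and NRXN3. Of 10 radial glia markers 4 fell: HOPX, FABP7 (-1.54, SE 0.18), VIM and PTPRZ1 (-1.99, SE 0.30). The HOPX call was lost in 5 of 8 alternatives, that of VIM in 2, with DESeq2 and without the library block, and those of FABP7 and PTPRZ1 in 1 each, without the block. SPP1, BCAS1 and ALCAM had 0 UMIs in the SST-positive cells. CLDN5 had 2 UMIs, SERPINE2 3, and TAFA1 and SLITRK2 4 each, and DESeq2 gave none of these 7 an adjusted p. CLDN5 stood at 5.94 and 0 CPM in SST-positive cells, against 38.7 and 145 CPM in the other NXPH1/LHX6 interneurons.

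Within the class, NPY was found most often at the highest SST counts. In library A an NPY UMI was found in 13.0% (4.94 to 26.3) of cells with 2 SST UMIs, 47.8% with 3 to 4, 45% with 5 to 9, 57.6% with 10 to 29 and 95.2% (76.2 to 99.9) with 30 or more. In library B the shares were 37.5% (18.8 to 59.4) of 24 cells with 2 SST UMIs, 38.5% of 13 with 3 to 4, 33.3% of 3 with 5 to 9, 50% of 8 with 10 to 29 and 75% (34.9 to 96.8) of 8 with 30 or more, so no rise was seen there below 10 SST UMIs. Outside the class the shares over both libraries were 9.85% with 1 SST UMI and 4.60% with 0, and 6.03% in CLDN5 cells. The 29 cells with 30 or more SST UMIs held 3128 of the 3650 NPY UMIs of SST-positive cells. Both counts come from the same cells and both grow with a cell's depth, whose median was 3834 UMIs at 30 or more SST UMIs and 3002 at 2.

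**Figure D4:**
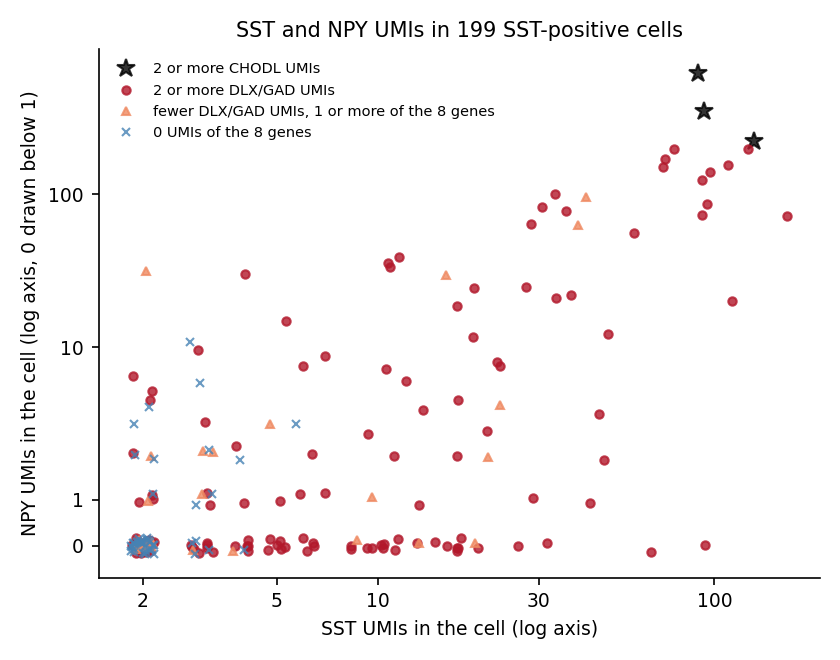
NPY against SST UMIs in each of the 199 SST-positive cells (both log axes, with 0 NPY UMIs drawn below 1 and small random offsets to separate points). Symbols give cells with 2 or more CHODL UMIs (stars), 2 or more DLX/GAD UMIs (circles), fewer but any of the 8 genes (triangles), and 0 UMIs of the 8 genes (crosses). The highest NPY counts lie at high SST, cells with 0 NPY UMIs reach high SST counts as well, and the 3 stars stand at 233 to 610 NPY UMIs.

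Among SST-positive DLX/GAD cells, 61 with 10 or more SST UMIs were set beside 42 with 2 to 4. Library B held 12 and 9 of these cells, too few for the test, so genes that were 4-fold apart in both libraries are described without one. SST is the value the rule used, and a gene counted only with at least 20 CPM and 5 cells where it was higher, so the counts support nothing: 65 of 5225 genes (1.24%) were higher and 48 of 4812 (0.998%) lower at high SST. NPY led with 8913 and 12661 CPM at high SST, against 511 and 247 CPM at low SST. PDE1A stood at 467 and 293 CPM against 16.5 and 30.9 CPM, PTPRT at 863 and 635 CPM against 115 and 30.9 CPM, and TENM1, a teneurin adhesion gene, at 146 and 81.4 CPM against 24.7 and 0 CPM. TAC3 had 18 UMIs in 11 cells at high SST and 1 UMI at low SST. IGFBP7, a gene of vessel cells, had 1 UMI at high SST and 28 UMIs in 7 cells at low SST.

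After the values were seen, the 122 DLX/GAD members were divided by NPY and are described without a test. In 51 cells with 2 or more NPY UMIs the median was 21 SST UMIs, in 59 with 0 it was 5, and 12 held 1 NPY UMI. Median depth was 3572 UMIs in the 51 and 3081 in the 59. PDE1A was found in 18 of the 51 and 1 of the 59, PTPRM in 36 and 16, and CHRM2 in 17 and 6. The PTPRM difference came from library A alone, with 32 of 41 cells against 11 of 47. In library B it was 4 of 10 against 5 of 12. NXPH1 was found in 84.3% of the 51 and 84.7% of the 59. RELN went opposite ways in the libraries. It was found in 24 of 41 cells with 2 or more NPY UMIs (58.5%) and 23 of 47 with 0 (48.9%) in library A, and in 3 of 10 (30%) and 10 of 12 (83.3%) in library B. Of the 12 cells with 1 NPY UMI, 8 held RELN.

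A few cells stood apart by CHODL, the membrane lectin gene that marks long-range projecting SST neurons in mice. CHODL was among the largest rises against all other cells (6.12, SE 0.97), but its 22 UMIs lay in 3 SST-positive cells. The cell of library A held 14 CHODL, 7 TACR1, 6 NOS1, 610 NPY and 93 SST UMIs of 13143 in all. The cells of library B held 2 and 6 CHODL, 2 and 5 TACR1, 0 and 0 NOS1, 378 and 233 NPY, and 96 and 126 SST UMIs, of 3171 and 5940. TACR1 encodes the substance P receptor and NOS1 the neuronal nitric oxide synthase. PDE1A was present in all 3 with 10, 12 and 11 UMIs, and RELN was at 0 in all 3. DLX/GAD UMIs were 0 in the cell of library A and 4 and 0 in those of library B, and each held NXPH1 UMIs (3, 1 and 9). Their Scrublet scores were 0.061 to 0.076.

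These 3 cells held 33.5% of the NPY UMIs of all SST-positive cells. Left out, an alternative chosen after seeing the data, NPY was at 7.65 against all other cells in place of 8.32 and PDE1A at 4.32 in place of 4.83. Within the class, TACR1 UMIs were found in these 3 cells alone. NOS1 UMIs were found in 3 SST-positive cells, of which only the cell of library A, with 6, was a CHODL cell. Both calls against all other cells ended without the CHODL cells, and the NOS1 call was lost in 3 of 8 alternatives. Outside the class, 22 cells held a CHODL UMI, 2 of them more than 1, and those 2 held 0 NPY and 0 TACR1 UMIs.

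The 45 SST-positive cells without UMIs of the 8 interneuron genes stood mostly near the threshold. Of them 33 had exactly 2 SST UMIs and 1 had 5 or more. Their median depth was 3083.5 and 2773 UMIs in libraries A and B, against 3687 and 3125 in the 7023 and 3668 other cells without such UMIs. Library B held 17, under the minimum of 20, so their values are described without a test.

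Many of the 45 carried RNA of other cell types. Excitatory neuron markers reached 3 or more UMIs in 60% (44.3 to 74.3) of the 45, against 63.5% of the other cells without interneuron UMIs. NEUROD2 was found in 51.1%, against 52.4%, and MEIS2 in 93.3%, against 94.9%. CLDN5 at 2 or more UMIs was found in 8 of 45 (17.8%, 8.0 to 32.1), 3 in library A and 5 in library B, against 1.10% and 8.02% of the other cells in libraries A and B. The summed endothelial list stood at 309 and 1127 CPM in the 45 cells, against 52.1 and 283 CPM.

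Of 4344 genes with at least 20 CPM in both libraries and 5 cells, 18 (0.414%) were 4-fold higher in the 45 cells in both libraries, and 75 of 7006 (1.07%) 4-fold lower. A gene counted only with these levels in the class where it was higher, so these counts too support nothing. In the 45 cells, 3 UMIs would be 33.2 and 58.3 CPM in libraries A and B. NPY led, with 232 and 311 CPM against 12.4 and 12.2 CPM. It had 37 UMIs in 12 of the 45 cells (26.7%, 14.6 to 41.9), against 4.47% of the other cells without interneuron UMIs. Vessel genes followed: VWF, the von Willebrand factor gene, PTPRB, a vascular receptor phosphatase gene, CAV1, the caveolin gene, and the receptor gene ADGRL4, each with 6 to 15 UMIs in 5 to 7 cells. ERBB4 stood at 265 and 524 CPM, against 45.3 and 93.3 CPM, with 51 UMIs in 20 of the 45 cells (44.4%), against 13.5% of the other cells. The share of this that comes from endothelial cells, which hold ERBB4 UMIs in 64.5% and 62.4% of CLDN5 cells, was not tested.

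Set beside the 154 members with interneuron UMIs, the 45 cells held little of the genes that marked the class. Those genes were called in sums to which the 154 cells gave 599000 of 741078 UMIs. Their lower level in the 45 is therefore a description and no separate support. In both libraries 48 of 4344 genes were 4-fold higher in the 45 and 197 of 6074 were 4-fold lower. A gene counted only with at least 20 CPM and 5 cells where it was higher, so these counts support nothing. The sets also differ in SST: 5 or more SST UMIs stood in 1 and 0 of the 45 in libraries A and B, against 73 and 19 of the 154. A difference with SST count therefore cannot be told apart from one with interneuron UMIs. NPY stood at 232 and 311 CPM in the 45, against 5648 and 7179 CPM in the 154. RELN stood at 33.2 and 0 CPM, against 481 and 334 CPM, and OLFM3 at 11.1 and 19.4 CPM, against 919 and 365 CPM. CNTNAP2 and GRM5, a metabotropic glutamate receptor gene, had 0 UMIs in the 45. NRN1, a neuritin gene, went the other way, with 475 and 427 CPM in the 45, against 64.5 and 55.7 CPM.

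**Figure D5:**
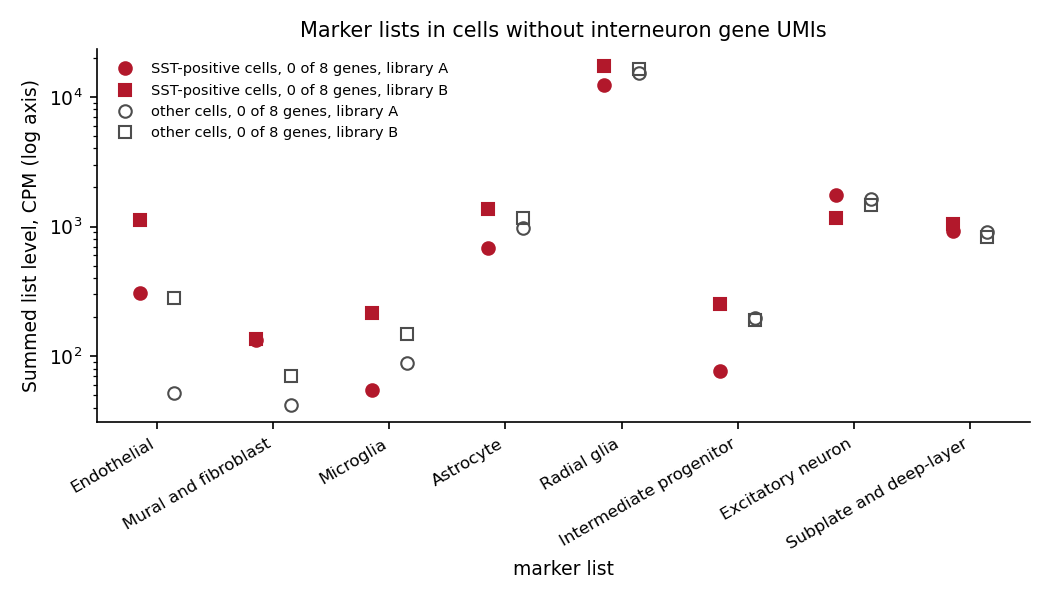
Summed marker lists (CPM, log axis) in the 45 SST-positive cells without UMIs of the 8 interneuron genes (filled, left) and in other cells without them (open, right), in library A (circles) and library B (squares). The endothelial list stood at 309 and 1127 in SST-positive cells, against 52.1 and 283 in the others, while excitatory and radial glia lists overlapped.

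The SST rule crosses gates set on other genes. Of 199 SST-positive cells, 13 (6.53%) held 2 or more ADARB2 UMIs, against 6.32% of all other cells, and 11 of the 13 were among the 122 DLX/GAD members. MEIS2 at 2 or more UMIs was found in 84 members (42.2%, 35.3 to 49.4), against 80.7% of all other cells, and 27 were among those 122. CLDN5 at 2 or more UMIs was found in 12 members (6.03%), against 3.98% of all other cells, and 2 of the 12 were among the 122.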

How the data were processed

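Papain-dissociated dorsal cortex was sequenced on the 10x Genomics Chromium platform, per the labels. The deposited values are UMI counts per gene and cell, and the submitters' processing notes name Cell Ranger for them. Neither the version nor a genome build was stated. The deposited matrix names 29816 genes, of which 21317 had a UMI, and no cell was under 1501 UMIs. The barcode suffix was read as the library.

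UMIs were summed per class and library without SST, giving 4 sums per comparison. They were tested with edgeR 4.0.16 (R 4.3.3; TMM scaling, its default filter on low counts, quasi-likelihood test, library as block, 1 residual degree of freedom) and Benjamini-Hochberg adjustment over all genes tested, called under 0.05. The block pairs classes drawn from the same library. Spread was shared over genes in the fit. Each SE is the edgeR log2 fold change, without its sign, divided by the square root of the test's F statistic. The procedure was tested on simulated data with the same spread for every gene. These do not copy sums that rest on few cells, so no conclusion is drawn from them. The minimum of 20 cells per sum was not met for the 45 cells without interneuron UMIs or for high against low SST. There, genes 4-fold apart in both libraries, with at least 20 CPM in both libraries of the higher class and at least 5 cells, were described without a test. Genes used to draw both classes were left out of a fit.

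Named genes are the 10 largest calls in each direction with at least 20 CPM in the higher class and the same direction in both libraries, plus members of 27 gene lists (288 of 301 genes measured); genes with a locus number only were left unnamed, and some genes counted in the lists and calls are not reported here by name. The members and lists were chosen with earlier results of these data known. Doublets were not removed. DESeq2 1.42.0, thinning to 1500 UMIs, Scrublet (scanpy 1.11.5), other thresholds and filters were alternatives. Intervals are exact binomial (95%).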

Additional observations from a re-analysis of the deposited data

How the results depend on the processing

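Precision is limited by 2 libraries, 56 SST-positive cells in library B and a median of 3152 UMIs per SST-positive cell. Among the genes named, 46 of 49, 60 of 63 and 30 of 36 kept their direction and side of the threshold without the 3 CHODL cells, in the comparisons with all other cells, other DLX/GAD cells and other NXPH1/LHX6 interneurons. With DESeq2 it was 38 of 48, 29 of 47 and 11 of 23 to which it gave an adjusted p, after thinning 33 of 46, 43 of 56 and 18 of 27, and without the library block 47 of 49, 34 of 63 and 11 of 36. With 1 library left there is no test. Of 148 named values, 66 moved by more than the spread between libraries without library A and 19 without library B. That spread comes from the same 2 libraries. Of the called ones 0 changed sign, but the largest calls were named only with the same direction in both libraries. Over all calls against all other cells, 917 of 936 had the same direction in both libraries.

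Against all other cells (436 higher, 500 lower), thinning gave 186 and 172 and DESeq2 227 and 84. Against other DLX/GAD cells (175 and 141), thinning gave 99 and 88, DESeq2 48 and 22, a level of 1 DLX/GAD UMI 350 and 383, leaving out cells with a Scrublet score above 0.2 gave 252 lower, and no filter on low counts 288 lower. Against other NXPH1/LHX6 interneurons (52 and 53), thinning gave 23 and 33, DESeq2 13 and 8, no filter on low counts 86 and 144, a comparison class with 0 SST UMIs 18 lower, and median-of-ratios scaling 22 lower. The genes 4-fold higher in cells without interneuron UMIs were 18, and 5 with SST of 3 or more. Those higher at high SST were 65, and 109 after thinning. The cause of these changes was not tested.

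Without the library block, which pairs classes within a library, 223 genes were lower against all other cells, 66 were higher and 29 lower against other DLX/GAD cells, and 11 were higher and 3 lower against other NXPH1/LHX6 interneurons.

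The share of SST-positive cells with interneuron UMIs (77.4%) was 90.7% with 3 or more SST UMIs, 98.9% with 5 or more, 68.3% when 2 or more UMIs of the 8 genes were required, and 69.6% to 80.4% in single libraries. Against all other cells, ADARB2, not called, turned to -0.69 after thinning and -0.35 without cells of Scrublet score above 0.2, CLDN5, not called, to -0.69 with SST of 3 or more, and TACR1 to -7.42 without the 3 CHODL cells, with 0 UMIs left. Against other DLX/GAD cells, CXCR4 (0.41) and TAC3 (0.36), neither called, turned at 1 DLX/GAD UMI. Fits with SST of 5 or more, the stricter DLX/GAD level and, for NXPH1/LHX6 interneurons, SST of 3 or more and the Scrublet filter were not run, since a sum held under 20 cells.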
